A study of Homo sapiens with 3 samples.

Results

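The abundance of guide RNAs after 14 days in apilimod was compared directly with that after 14 days in the solvent DMSO, in a pooled knockout screen of metabolic genes in MIA PaCa-2. This established human line was derived from a pancreatic ductal adenocarcinoma, and guide counts cannot check its identity. Every gene of the library was taken, and 2969 of 2978 genes could be scored in the 2 libraries, 1 of each arm, out of 3 in the series. The third library came from the initial population at day 0 and was used to filter guides and to place each arm against the start. All 3 libraries derived from cells infected with the same lentiviral knockout library, so that the DMSO arm differed from the apilimod arm by the drug alone as far as the labels say. The labels give 200 nM of apilimod, a concentration that differs from the one in the study's methods, and the high-dose screen that the study also describes was not analysed here. Each arm was 1 culture and 1 library, in 1 cell line. No spread between cultures could therefore be measured, no p-value is given, and every difference below is between these libraries.

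PIKfyve is a lipid kinase of endosomes and lysosomes that makes phosphatidylinositol 3,5-bisphosphate, and apilimod is a selective inhibitor of it. Lysosomes break down lipids and proteins taken up from outside or delivered by autophagy, and return fatty acids, cholesterol and amino acids to the cell. Cells can also make fatty acids from citrate, which leaves mitochondria, is converted to acetyl-CoA and malonyl-CoA and is condensed to palmitate with electrons from NADPH. Palmitate then feeds elongation, desaturation, ceramides and phospholipids. A guide that becomes rarer in apilimod than in DMSO can mark a knockout that cost the cells more in the drug. One that becomes more common can mark a knockout that cost less. Guides that target intergenic sequence also differed between the arms, with an SD of 0.77 on the log2 scale (n = 487 guides). A shift of a single guide is therefore not by itself an effect of its knockout.

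Sequencing gave 24695476 counts at day 0, 26276517 in DMSO and 25599416 in apilimod. Guides with at least 100 counts at day 0 were kept, which left 28042 guides against genes, between 6 and 10 per gene, and 487 of 499 control guides that target intergenic sequence. The gene score is the mean over a gene's guides of the log2 ratio of apilimod to DMSO, from counts plus 1 divided by the library total, less the median of the control guides. A gene was called lower or higher where its score passed 1.5-fold (0.585 on the log2 scale) with at least 80% of its guides on that side of the control median. The SD given with a score is over guides of the 2 libraries and measures how far guides of 1 gene differ, not how far cultures do. Intervals of summed counts are 95% Clopper-Pearson intervals and cover counting error only, because PCR copies are not independent cells.

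Of 2969 genes, 36 were called lower in apilimod (1.21%) and 18 higher (0.606%). At 2-fold with the same share of guides, 8 genes were lower (0.269%) and 1 was higher (0.0337%). The 8 were FASN, SLC25A1, ACACA, PGD, HSD17B12, CYP27B1, FDPS and ELOVL1, and the 1 was CAD. Gene scores had a median of -0.02 and an SD of 0.28 over genes and ran from -1.91 for FASN to 1.34 for DHODH. The balance of calls followed the centring and scaling, while 36 genes were lower and 18 higher as reported. Centring on all gene-targeting guides gave 26 lower and 37 higher, centring on control guides of at least 300 initial counts gave 28 and 30, scaling both arms to nucleotide synthesis genes gave 14 and 24, and scaling to N-glycan precursor genes gave 7 and 72. Each score was also recomputed under 16 alternative settings of scaling, filter, pseudocount and summary over guides, called alternatives in the following. In the 36 lower genes, 299 of 339 guides lay below the control median, and in the 18 higher genes 150 of 169 lay above it. The rule on the share of guides sets a floor for both counts, so they are not a separate result. Of all gene-targeting guides, 54.3% lay below the control median.

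**Figure D1:**
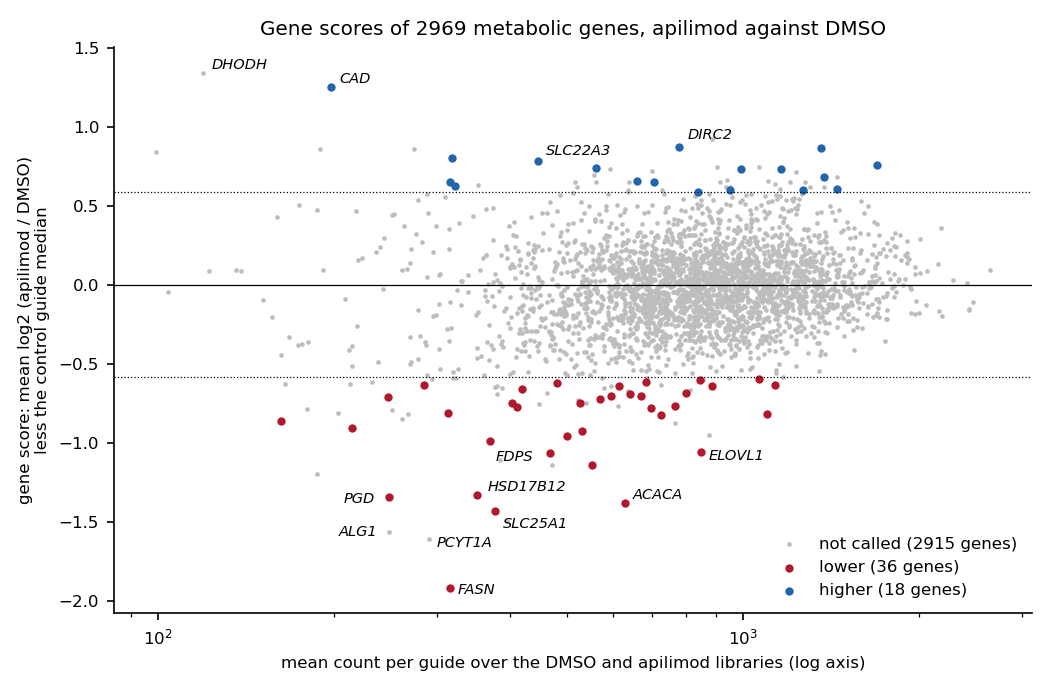
Gene score, the mean log2 ratio of apilimod to DMSO less the control median (y axis), against the mean count per guide of the gene over both libraries (x axis, log scale) for 2969 genes, with the 1.5-fold limits as dotted lines. FASN lies lowest at -1.91, the 36 genes called lower are red and the 18 called higher are blue, and DHODH, ALG1 and PCYT1A pass the fold in grey because under 80% of their guides lie on 1 side.

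In the fatty acid synthesis list, 3 of 9 genes were lower, FASN, SLC25A1 and ACACA, beside 1.21% of all genes. ACLY, at 0.31, had the highest score of the list. FASN, the fatty acid synthase that builds palmitate, had guides that summed to 2971 counts at day 0, 3941 in DMSO and 1107 in apilimod. All 8 of its guides were rarer in apilimod, from 534 counts in DMSO against 43 in apilimod for the strongest to 120 against 78 for the weakest. Its score of -1.91 ± 1.04 (SD, n = 8 guides) corresponds to 3.77-fold as the mean over guides, less the control median. The ratio of summed counts was -1.81 on the log2 scale, or 3.50-fold, with an interval of -1.91 to -1.71. The score was the lowest of all genes, and the call held in all 15 alternatives in which FASN could be scored.

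SLC25A1, the carrier that exports citrate from mitochondria, summed to 5397, 4976 and 2556 counts in the initial, DMSO and apilimod libraries, with a score of -1.43 ± 1.31 (SD, n = 10 guides). In this gene 9 of 10 guides were lower, and the exception went from 167 to 377 counts. ACACA, the acetyl-CoA carboxylase that makes malonyl-CoA in the cytosol, summed to 6316, 6475 and 2322 counts, with a score of -1.38 ± 0.93 (SD, n = 7 guides) and 6 of 7 guides lower. Its strongest guides went from 2025 to 416 counts and from 465 to 95. The SLC25A1 call held in all 16 alternatives and the ACACA call in 15 of 16, all but the N-glycan scaling.

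The remaining steps of the same list were not called. ACLY, the cytosolic enzyme that splits citrate to acetyl-CoA and so acts between SLC25A1 and ACACA, had 7585 counts at day 0, 3800 in DMSO and 4306 in apilimod. Its score was 0.31 ± 0.84 (SD, n = 10 guides), and 3 guides lay under the control median and 7 above it. ACLY knockouts were thus depleted in both arms, with mean changes of -1.43 in DMSO and -1.19 in apilimod. ACSS2, which makes acetyl-CoA from acetate, was at -0.03, and ACACB, the mitochondrial paralog of ACACA, at -0.18. MLYCD, which degrades malonyl-CoA, was at -0.02, the thioesterase OLAH at 0.12 and ACSF3, which activates malonate in mitochondria, at -0.25. No gene of the list was called higher, and the list median was -0.18, beside -0.02 for all genes scored. The study itself named genes of this list from these libraries, so the count is not independent of them.

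**Figure D2:**
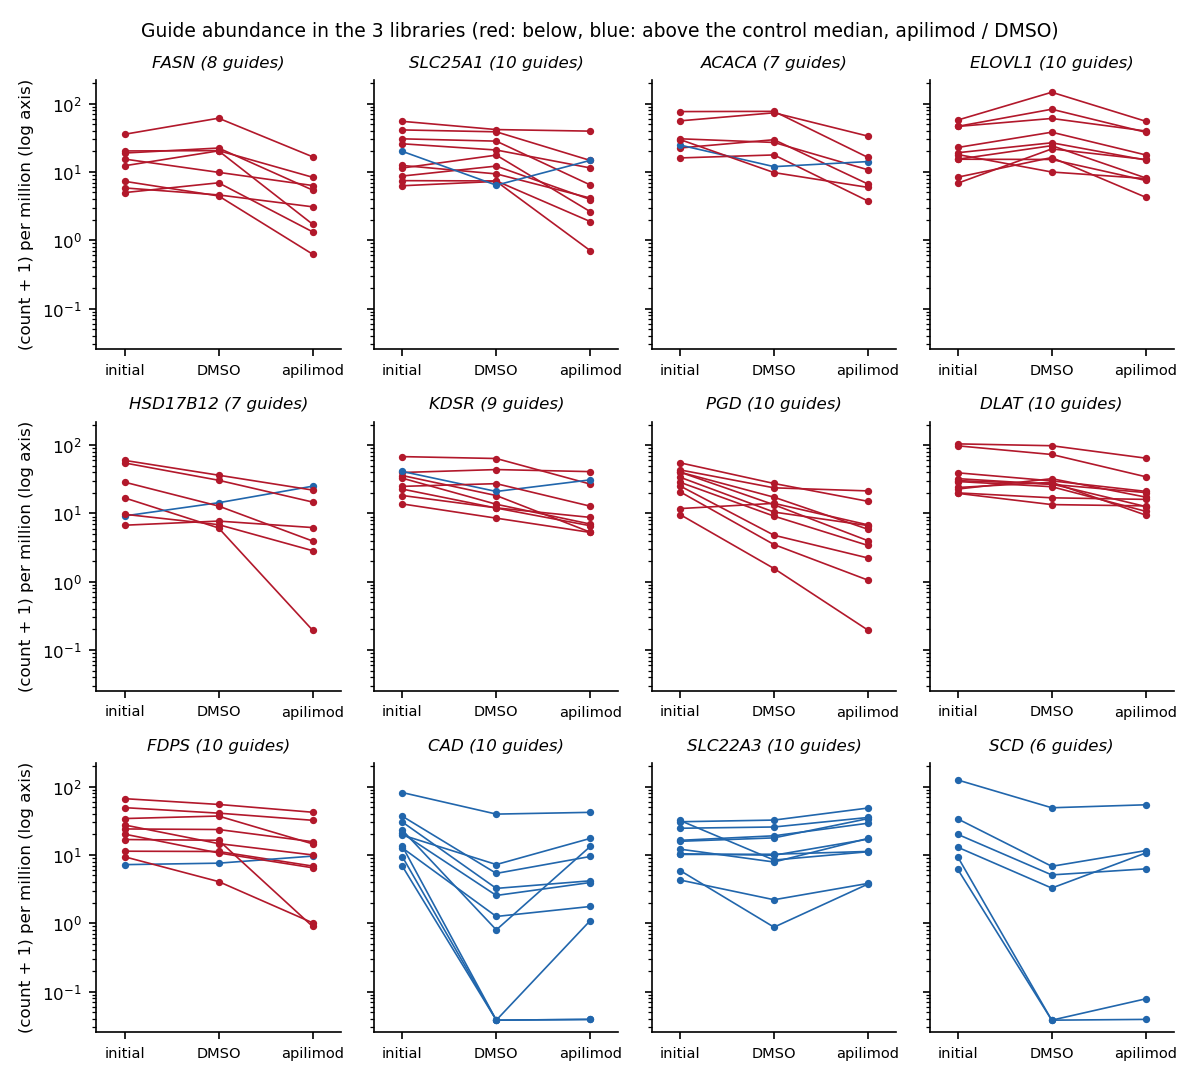
Abundance of each guide as CPM after adding 1 count (y axis, log scale) in the initial, DMSO and apilimod libraries (x axis) for 12 genes, with 1 line per guide, red where the ratio of apilimod to DMSO lies below the control median and blue where it lies above. All 8 guides of FASN descend from DMSO to apilimod. In DMSO they had moved in both directions, by -0.85 to 0.64 on the log2 scale less the control median. Those of PGD descend from DMSO to apilimod, and most also descend in DMSO, but not a guide that went from 290 to 368 counts. The lines of CAD include 2 guides at 0 counts in both 14-day libraries.

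Elongation of fatty acids to very long chains had 2 called genes, ELOVL1 and HSD17B12. ELOVL1, the elongase of saturated and monounsaturated very-long-chain acyl-CoA, summed to 6315 counts at day 0, 11620 in DMSO and 5337 in apilimod. All 10 guides were lower, from -1.95 to -0.33 on the log2 scale, with a score of -1.06 ± 0.50 (SD, n = 10 guides). ELOVL1 was among the 15 of 36 lower genes whose SD over guides was smaller than the score, and its call held in all 16 alternatives. The mean change of its guides was 0.48 in DMSO and -0.64 in apilimod, so its guides had become more common in DMSO and rarer in apilimod. The 6 other elongase genes had scores from -0.38 for ELOVL5 to 0.39 for ELOVL6, with a median of 0.14 and none called.

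HSD17B12, the ketoacyl-CoA reductase that acts after the elongases, summed to 4585, 3009 and 1911 counts and scored -1.33 ± 1.80 (SD, n = 7 guides). In this gene 6 of 7 guides were lower, 1 of them with 160 counts in DMSO and 4 in apilimod. Without that guide the score was -0.72. TECR, the reductase of the last step of the cycle, summed to 6840, 7102 and 4480 counts and scored -0.65 ± 0.91 (SD, n = 10 guides). It passed the fold with 7 of 10 guides below the control median and was not called, and its paralog TECRL was at 0.36. Of 18 symbols in the list, 10 were scored, which were the elongases, HSD17B12, TECR and TECRL. Among these 10 genes, 2 were lower and 0 higher, beside 36 of all 2969 genes (1.21%) lower. The list median was 0.02 and turned to -0.05 under the N-glycan scaling. The study itself named ELOVL1 and HSD17B12 from its screens, so the count is not independent of its results. The HSD17B12 call ended with a minimum of 30 initial counts and with no minimum.

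In ceramide synthesis, KDSR, which reduces ketodihydrosphingosine, was the called member. Its guides summed to 7331 counts at day 0, 5780 in DMSO and 3692 in apilimod, and 8 of 9 were lower, with a score of -0.75 ± 0.68 (SD, n = 9 guides). SPTLC1 and SPTLC2, the subunits of the serine palmitoyltransferase one step earlier, were at -0.40 and -0.29, with 5 and 6 of 9 guides below the control median. Among the 6 ceramide synthases CERS2, which prefers very-long-chain acyl-CoA, had the lowest score, -0.51 ± 0.62 (SD, n = 10 guides), with 8 of 10 guides lower, and CERS5 the highest, 0.33. The list had 1 of 12 genes lower, beside 1.21% of all genes. Its median of -0.15 turned to 0.01 under the N-glycan scaling. The KDSR call ended under that scaling, at -0.24, and under the one to nucleotide synthesis genes. None of 22 genes that use or break down ceramide was called.

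Sterol synthesis had 1 called gene on each side of the branch point at farnesyl diphosphate. FDPS, which makes farnesyl diphosphate, summed to 6568 counts at day 0, 5799 in DMSO and 3558 in apilimod, with a score of -1.06 ± 1.27 (SD, n = 10 guides) and 9 of 10 guides lower. Its strongest guide went from 430 to 22 counts, and without it the score was -0.71. MSMO1, a methylsterol monooxygenase, summed to 8822, 11064 and 6519 counts and scored -0.82 ± 0.48 (SD, n = 8 guides), with 7 of 8 guides lower. Between them in the pathway, FDFT1 at -0.07, SQLE at 0.07 and LSS at -0.09 lay near the control median. DHDDS, which uses farnesyl diphosphate to make dolichol, scored -0.85 with 6 of 10 guides lower and was not called. In the mevalonate list 1 of 13 genes was lower and in the sterol branch 1 of 13, beside 1.21% of all genes. The list medians were -0.12 and -0.07, of which the first turned to 0.05 and 0.20 under the nucleotide and N-glycan scalings. The FDPS call ended under the N-glycan scaling, at -0.52.

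In the pentose phosphate pathway, PGD and RPIA were called lower. PGD, which makes NADPH in the pentose phosphate pathway, summed to 7617 counts at day 0, 3283 in DMSO and 1694 in apilimod. All 10 guides were lower, with a score of -1.34 ± 0.77 (SD, n = 10 guides), which was -0.29 and not called under the N-glycan scaling. RPIA, the ribose phosphate isomerase downstream of PGD, scored -0.60 ± 0.48 (SD, n = 9 guides), just inside the 1.5-fold limit, and its call ended in 10 of 16 alternatives. The 2 called genes were among 9 of the pathway, beside 1.21% of all genes called lower. The pathway median was -0.30 and stayed below 0 under each scaling and centring, from -0.30 to -0.05. NADK, the kinase that makes NADP, had all 10 guides below the control median, with a score of -0.54 ± 0.37 (SD, n = 10 guides).

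DLAT, a subunit of pyruvate dehydrogenase that passes the acetyl group to coenzyme A, summed to 10354 counts at day 0, 9724 in DMSO and 5604 in apilimod. Its 10 guides were all lower, with a score of -0.77 ± 0.50 (SD, n = 10 guides) that was -0.39 and not called under the N-glycan scaling. In the list of pyruvate dehydrogenase and of lipoylation, the attachment of its cofactor, 15 of 18 scores were below 0 and DLAT was the called gene. Of all genes scored, 53.7% had scores below 0 and 1.21% were called lower. The list median was -0.30, and it was 0.00 when both arms were scaled to N-glycan precursor genes. PDHA1 and PDHB, which form the part of the enzyme that acts on pyruvate, were at -0.37 and -0.36, and the mitochondrial pyruvate carrier genes MPC1 and MPC2 at -0.24 and -0.38. In glycolysis none of 25 genes was called, 17 scores were above 0, and GPI had the lowest, -0.56 ± 0.34 (SD, n = 10 guides).

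MPI, PMM2 and GFPT1, which make phosphorylated sugars for glycans, were called lower, while GMPPA and GMPPB, which serve the step to GDP-mannose, were at -0.38 and -0.39 and were not called. MPI, which converts fructose phosphate to mannose phosphate, summed to 4977 counts at day 0, 3829 in DMSO and 2442 in apilimod, with a score of -0.81 ± 1.04 (SD, n = 10 guides). PMM2, the next enzyme, summed to 9829, 9086 and 5303 counts and scored -0.68 ± 0.65 (SD, n = 9 guides), whereas its paralog PMM1 was at 0.09. GFPT1, which starts hexosamine synthesis, had 3978, 2695 and 1866 counts and scored -0.63 ± 0.83 (SD, n = 8 guides). Below the control median lay 9 of 10 guides of MPI, 8 of 9 of PMM2 and 7 of 8 of GFPT1. In the list of N-glycan precursor synthesis 2 of 26 genes were lower, MPI and PMM2, beside 1.21% of all genes. The list median was -0.23, or 0.11 when this list itself set the scale. That setting also ended the calls of MPI, PMM2 and GFPT1. All 3 calls ended under the nucleotide scaling as well, and those of MPI and PMM2 ended with the median over guides and without the farthest guide, at -0.51 and -0.52.

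Carriers and membrane enzymes made up another part of the lower genes. SLC1A7, a glutamate transporter, summed to 5863 counts at day 0, 7803 in DMSO and 5258 in apilimod, with all 9 guides lower and a score of -0.82 ± 0.51 (SD, n = 9 guides). SLC1A5, the neutral amino acid carrier that imports glutamine, summed to 8025, 6693 and 4698 counts and scored -0.72 ± 0.89 (SD, n = 10 guides). The 5 other SLC1 genes lay between -0.19 and 0.10. The SLC1A5 call ended in 6 of 16 alternatives, and the score was -0.54 without the farthest guide. SLC30A9, a mitochondrial zinc transporter, had all 9 guides lower, with 7227, 4586 and 2814 counts and a score of -0.77 ± 0.84 (SD, n = 9 guides), which was -0.53 and not called without the farthest guide. PI4KA, which makes phosphatidylinositol 4-phosphate at the plasma membrane, had 3912, 2415 and 1452 counts and a score of -0.91 ± 0.97 (SD, n = 9 guides). The 3 other PI4-kinase genes, PI4KB, PI4K2A and PI4K2B, lay between -0.05 and 0.11, and the PI4KA call ended in 7 of 16 alternatives.

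ALOX15B, a lipoxygenase of polyunsaturated fatty acids, had 5234, 6239 and 3783 counts in the initial, DMSO and apilimod libraries and 9 of 10 guides lower, with a score of -0.96 ± 0.84 (SD, n = 10 guides). The 5 other lipoxygenase genes lay between -0.44 and 0.20. SLC27A4, a fatty acid carrier with acyl-CoA synthetase activity, scored -0.62 ± 0.81 (SD, n = 9 guides) and its 5 paralogs lay between -0.45 and 0.05. Its call ended in 9 of 16 alternatives, and without the farthest guide the score was -0.48. APRT, which salvages adenine, had 4862, 3614 and 2311 counts and 7 of 8 guides lower, with a score of -0.99 ± 1.25 (SD, n = 8 guides). The APRT call ended in 3 of 15 alternatives, among them the N-glycan scaling, at -0.34. ASNA1, now named GET3, the ATPase that delivers tail-anchored proteins to the endoplasmic reticulum, had 12988, 7361 and 4539 counts and a score of -0.70 ± 0.46 (SD, n = 10 guides). Its call ended under the nucleotide and N-glycan scalings, at -0.41 and -0.05. ATP13A1, which removes misplaced proteins from the endoplasmic reticulum membrane, scored -0.69 ± 1.18 (SD, n = 10 guides), and 1 guide decided the value, since the score without it was -0.34.

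Several lower calls turned on 1 guide. CYP27B1, the vitamin D hydroxylase, scored -1.14 ± 2.42 (SD, n = 10 guides), of which 1 went from 176 counts in DMSO to 0 in apilimod, and its summed counts were 5915 and 5152. The score without that guide was -0.44. ST6GALNAC6, a sialyltransferase, had a guide that went from 75 to 0 counts, and without it the score of -0.78 became -0.17. In NPC1, the protein that exports cholesterol from lysosomes, 1 guide went from 36 to 0 counts, another went from 292 to 1234, and the score of -0.64 became -0.13 without the first. NDUFB1, a subunit of respiratory complex I, had a guide that went from 70 to 1 count, with scores of -0.92 with it and -0.45 without. RFK, which makes flavin mononucleotide, scored -0.70, or -0.30 without the farthest guide and 0.10 under the N-glycan scaling. ISCA2, an assembly factor of iron-sulfur proteins, scored -0.71, or 0.25 under that scaling. Its call did not turn on 1 guide, since the score without the farthest guide was -1.05. Further lower genes were PTGES2 at -0.66, PDE1B at -0.64 and COLGALT1 at -0.60, whose scores without the farthest guide were -0.47, -0.22 and -0.26. The farthest guide of PDE1B went from 21 to 0 counts and that of COLGALT1 from 39 to 2. These 3 calls ended in 10, 9 and 11 of 16 alternatives, that of RFK in 9 and that of ISCA2 in 5. In all, 8 guides of 7 lower genes had counts in DMSO and 0 in apilimod, and 21 of 36 lower calls held when the guide farthest from the gene's median was left out.

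In de novo pyrimidine synthesis 1 of 6 genes was called, CAD, as higher, beside 0.606% of all genes. Guides against CAD, which catalyses the opening steps, summed to 6281 counts at day 0, 1571 in DMSO and 2380 in apilimod. No guide lay below the control median and the score was 1.25 ± 1.73 (SD, n = 10 guides). The values of its guides were uneven: 2 guides were at 0 counts in both 14-day libraries, 1 went from 0 to 27, 1 from 20 to 340, and the best covered guide went from 1040 to 1075. With the farthest guide left out, the score was 0.85, and the call held in 15 of 16 alternatives, all but the median over guides. DHODH, the mitochondrial enzyme of the next step, had 5392, 727 and 1425 counts and the highest score of all genes, 1.34 ± 1.66 (SD, n = 9 guides), and 7 of 9 guides lay above the control median, too few for a call. UMPS, which completes the pathway, had 4511, 1383 and 1650 counts and a score of 0.86 ± 1.56 (SD, n = 8 guides), and 5 of 8 guides lay above. All 3 genes were depleted in both arms, by means of -4.50, -3.83 and -3.13 in DMSO and -3.32, -2.56 and -2.34 in apilimod for CAD, DHODH and UMPS.

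The kinase CMPK1 and the CTP synthases did not share this direction, with -0.55 for CMPK1, 0.03 for CTPS1 and -0.10 for CTPS2. The pyrimidine list had 1 of 6 genes higher and a median of 0.44, which lay between 0.44 and 1.09 under the scalings. In purine synthesis none of 14 genes was called, 10 scores were below 0, and the median was -0.23, although it turned to 0.08 with both arms scaled to nucleotide synthesis genes and to 0.37 with N-glycan precursor genes. RRM1, the large subunit of ribonucleotide reductase, had 1556, 482 and 906 counts, and its score of 0.84 ± 2.99 (SD, n = 7 guides) came with 5 of 7 guides above the control median.

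SCD, the main stearoyl-CoA desaturase, had 5112, 1684 and 2114 counts in the 3 libraries and 6 guides, none below the control median, with a score of 0.65 ± 0.64 (SD, n = 6 guides). Of these guides 1 was at 0 counts in both 14-day libraries and 1 went from 0 to 1, so that the call rests on 4 guides with counts in DMSO. The score was -0.07 with a minimum of 30 initial counts and -0.07 with no minimum, where further guides of low abundance entered. The other desaturases had scores below 0, and FADS1 had all 7 guides below the control median, with -0.53 ± 0.42 (SD, n = 7 guides). ACOT12, which hydrolyses acetyl-CoA in the cytosol, had 12176, 11676 and 18897 counts and a score of 0.75 ± 0.67 (SD, n = 9 guides), and its call ended in 1 of 16 alternatives.

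DIRC2, now named SLC49A4, a transporter of the lysosomal membrane, had the second highest score among the called genes. Its guides summed to 5824 counts at day 0, 6206 in DMSO and 9368 in apilimod, and 9 of 10 lay above the control median, with a score of 0.87 ± 0.79 (SD, n = 10 guides). SLC22A3, an organic cation transporter, had 3997, 3521 and 5405 counts, with all 10 guides above and a score of 0.78 ± 0.54 (SD, n = 10 guides). The calls of DIRC2 and SLC22A3 held in every alternative that scored them, 16 and 15. The 10 other SLC22A genes in the list of organic ion transporters lay between -0.36 and 0.44, and SLC22A genes outside the list are not set beside them. SLCO1B7 scored 0.87 ± 0.85 (SD, n = 10 guides), 8 of the 10 were above the control median, and its close relatives SLCO1B1 and SLCO1B3 were at 0.16 and 0.35. Guides that match more than 1 of these genes were not looked for.

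The vacuolar proton pump, which acidifies lysosomes, had members on both sides. ATP6V0C, which forms the proton-carrying ring in the membrane, had 7837, 1892 and 1357 counts in the initial, DMSO and apilimod libraries and scored -0.86 ± 2.35 (SD, n = 10 guides), and ATP6V0B, another ring subunit, had 9357, 4711 and 3347 counts and scored -0.75 ± 0.97 (SD, n = 10 guides). Both signs turned when the arms were scaled to N-glycan precursor genes, to 0.57 for ATP6V0C and 0.05 for ATP6V0B. ATP6V0A1, a subunit beside the ring, had 8318, 5697 and 8386 counts and scored 0.65 ± 1.04 (SD, n = 10 guides), and 1 guide of it went from 165 to 1807 counts. ATP6V1G2, a stalk subunit known mainly from neurons, scored 0.68 ± 1.43 (SD, n = 8 guides), and 1 guide went from 8 to 142 counts. Without their farthest guides the scores were 0.34 for ATP6V0A1 and 0.20 for ATP6V1G2, and that of ATP6V0C was -1.40 without a guide that went from 4 to 80 counts. Calls ended in 10 of 16 alternatives for ATP6V0C, 4 for ATP6V0B, 3 for ATP6V0A1 and 5 for ATP6V1G2. Of 25 genes in the list 2 were lower and 2 higher, beside 1.21% and 0.606% of all genes. The list median was 0.07.

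Other higher genes had scores from 0.59 to 0.74. FDX1, a mitochondrial ferredoxin, had 8869, 4339 and 6902 counts and a score of 0.74 ± 1.41 (SD, n = 10 guides), which became 0.33 without a guide that went from 0 to 20 counts. SLC7A11, the cystine and glutamate exchanger, had 5579, 5517 and 7680 counts and a score of 0.66 ± 0.72 (SD, n = 10 guides), while its partner chain SLC3A2 was at -0.10. CHST3, a chondroitin sulfotransferase, scored 0.73, of which 1 guide with 0 counts in DMSO and 94 in apilimod carried the size, and the score without it was 0.08. PIP5K1C, which makes phosphatidylinositol 4,5-bisphosphate, was at 0.62 with its paralogs PIP5K1A and PIP5K1B at 0.17 and 0.16. AMD1, which supplies the aminopropyl donor of polyamine synthesis, was at 0.60, and CNEP1R1, a regulator of the lipin phosphatases, at 0.59. Further higher genes were IYD at 0.73, SDR16C5 at 0.61 and ABCC9 at 0.60. The calls ended in 4 of 16 alternatives for FDX1, SLC7A11 and IYD, 6 for SDR16C5, 7 for ABCC9, 9 for AMD1, 11 for CHST3 and CNEP1R1, and 5 of 15 for PIP5K1C. Of the 18 higher calls, 5 held when the farthest guide was left out.

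The target of the drug and the other scored genes of its list were not called. PIKFYVE guides summed to 6888 counts at day 0, 8473 in DMSO and 6385 in apilimod, and 7 of 9 lay below the control median, with a score of -0.23 ± 0.54 (SD, n = 9 guides). The mean change of these guides was -0.06 in DMSO and -0.36 in apilimod. FIG4, the phosphatase of the same complex, was at 0.14, PIK3C3, which makes the substrate of PIKfyve, at 0.01, and its regulatory subunit PIK3R4 at -0.33. The PIP4K2 kinases lay between -0.14 and 0.17. In this list of 16 symbols, 7 were scored and 0 called in either direction, beside 1.21% lower and 0.606% higher of all genes. Symbols of the list without a score were not measured here.

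Each called gene was also placed by its change against the initial population in each arm, with the same 1.5-fold limit on the mean of its guides. These 3 comparisons share their libraries and are set side by side as a description. Of the 36 lower genes, 21 were within the limit in DMSO and depleted in apilimod, among them FASN, SLC25A1, ACACA, ELOVL1, FDPS, MSMO1 and DLAT. FASN moved by -0.07 in DMSO and by -2.06 in apilimod, and SLC25A1 by -0.31 and -1.80. In NPC1, PDE1B, ST6GALNAC6 and COLGALT1, also among the 21, 1 guide each carried much of the apilimod mean. These guides were at -9.17, -8.30, -8.70 and -5.91, beside gene means of -0.72, -1.15, -1.39 and -0.94. A further 14 were depleted in both arms and more so in apilimod, such as PGD with -1.68 and -3.09 and ATP6V0C with -3.26 and -4.19. WWOX, an oxidoreductase whose score was -0.61 and whose call ended in 7 of 16 alternatives, stayed within the limit in both. Of the 18 higher genes, 4 were depleted in both arms, among them CAD, FDX1 and SCD. Another 5 were depleted in DMSO and within the limit in apilimod, and 7 were within it in both. Among the 5, 1 guide each carried most of the DMSO mean of CHST3 and ATP6V1G2, at -7.08 and -6.10. DIRC2 and SLCO1B7 were enriched in apilimod at 0.61 and 0.88. Over all genes, 428 were depleted in DMSO, of which 368 were also depleted in apilimod and 60 were within the limit there. A further 297 were within the limit in DMSO but depleted in apilimod, and 2236 were within it in both. The arms were centred separately on the control guides, so that the difference of the arm changes lies 0.07 below the gene score.

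**Figure D3:**
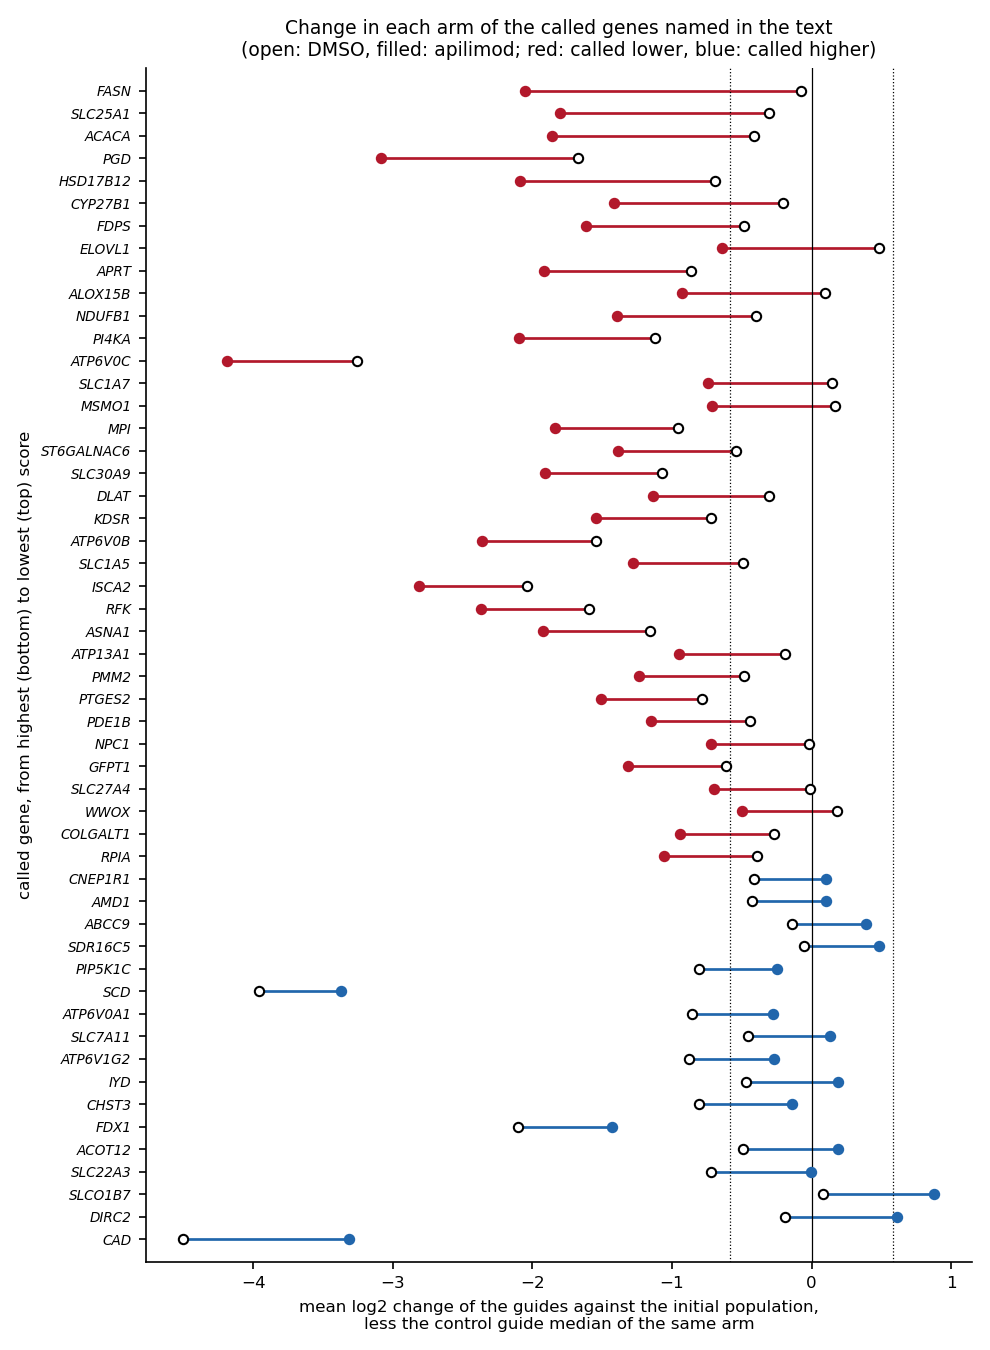
Mean log2 change of the guides against the initial population, less the control median of the arm (x axis), in DMSO (open circles) and apilimod (filled circles) for the called genes named in the text (y axis), with the 1.5-fold limits as dotted lines. The red lines of FASN, SLC25A1 and ACACA run from between -0.41 and -0.07 in DMSO to between -2.06 and -1.80 in apilimod, whereas CAD and SCD lie far below 0 in both arms.

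Across the 38 gene lists, which held 636 of the 2969 scored genes, 20 of the 36 lower genes and 10 of the 18 higher genes were list members. The lists were chosen with earlier results of these data known, so these counts are not a separate result. Ether lipid synthesis, which starts in peroxisomes, had no called gene and all 5 scores above 0, from 0.19 for GNPAT to 0.52 for FAR2, with a median of 0.30 that lay between 0.25 and 0.36 under the scalings. Coenzyme Q synthesis had no called gene and all 10 scores below 0, with a median of -0.11 that turned to 0.12 under the N-glycan scaling and to 0.02 under the nucleotide scaling. In heparan and chondroitin sulfate synthesis 19 of 29 scores were above 0, with a median of 0.11. Of all genes scored, 1594 scores were below 0 and 1375 above. The differences between lists were not tested.

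**Figure D4:**
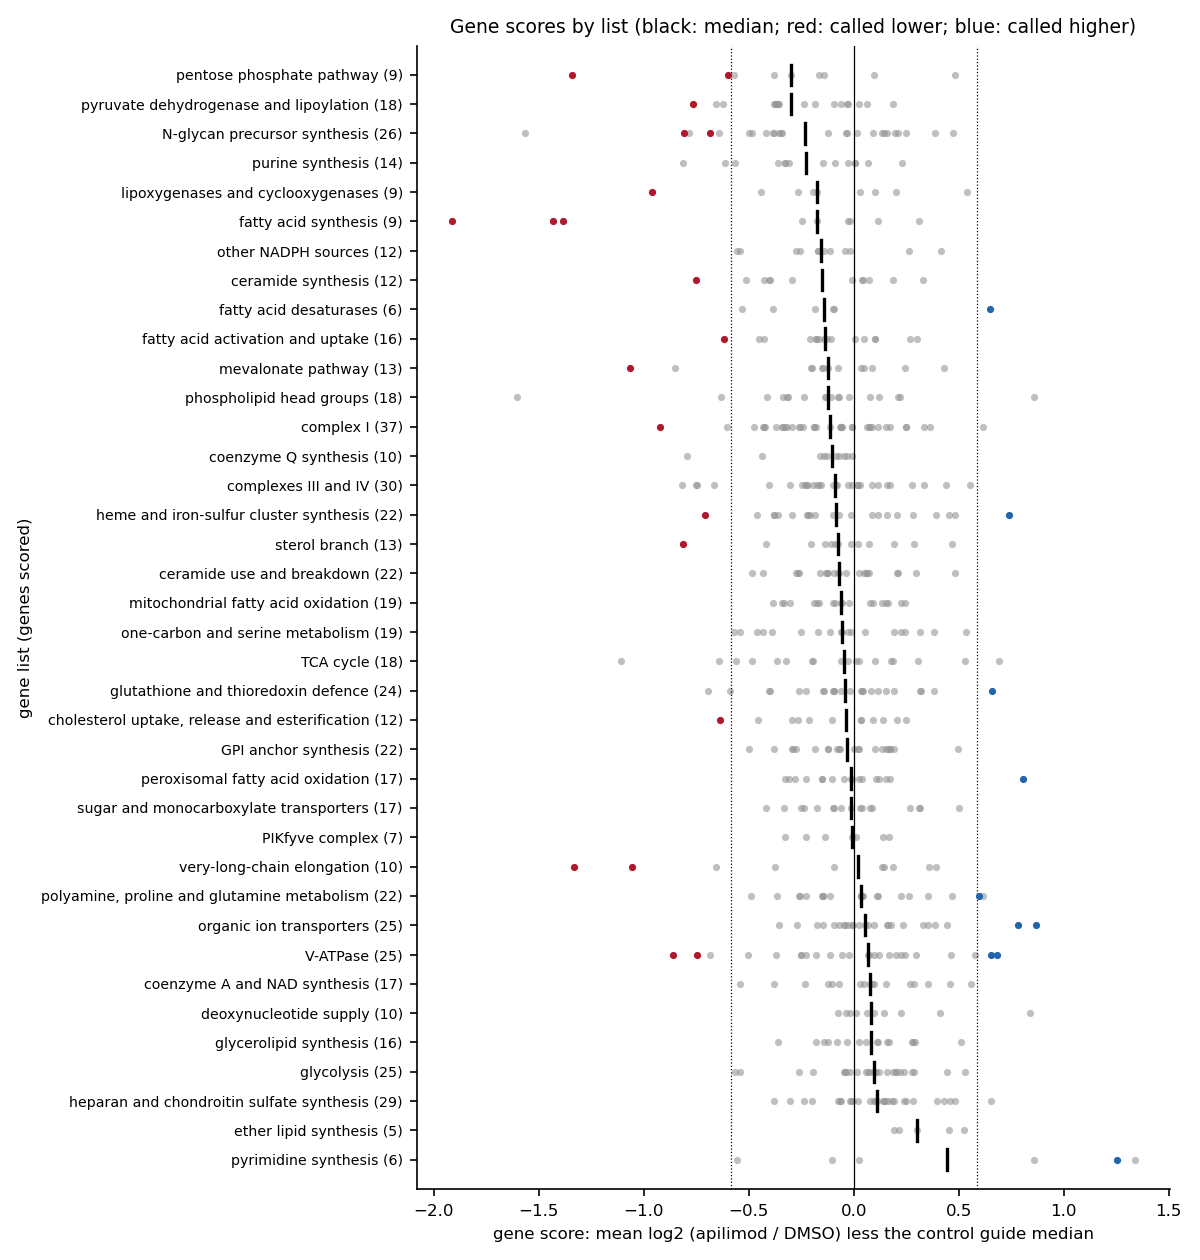
Gene scores (x axis) of the members of 38 lists (y axis, with the number of genes scored), 1 point per gene, red where called lower and blue where called higher, with the list median as a black bar and the 1.5-fold limits as dotted lines. The 3 red points of fatty acid synthesis lie far from the list median of -0.18, and all 5 points of ether lipid synthesis lie above 0.

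Some genes passed the fold without enough guides on 1 side. PCYT1A, which controls phosphatidylcholine synthesis, had the second lowest score of all genes, -1.61 ± 2.69 (SD, n = 9 guides), with 5 of 9 guides lower. Of these, 2 guides went from 77 and 60 counts in DMSO to 0 in apilimod, while 4 guides lay above the control median. ALG1, a mannosyltransferase of N-glycan synthesis, scored -1.56 ± 2.91 (SD, n = 9 guides), with 3 guides at 0 in apilimod from 133, 23 and 9 counts, and its summed counts were 2148 in DMSO and 2322 in apilimod. MDH2, the mitochondrial malate dehydrogenase, scored -1.11 ± 2.26 (SD, n = 9 guides), with 1 guide that went from 190 to 1 count. Without the rule on the share of guides, 74 genes would be lower and 50 higher. Conversely, 15 genes had all their guides below the control median, of which 6 were called (FASN, PGD, ELOVL1, SLC1A7, SLC30A9 and DLAT), and 3 had none below, all called (CAD, SLC22A3 and SCD). Of these guides, 2 of CAD and 1 of SCD had 0 counts in both arms. Their ratio of 0.02 follows from the pseudocount, the library totals and the centring, so they carry no information on direction.

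Guides of low abundance set much of the spread. The SD of gene-targeting guides was 1.44 at 100 to 199 initial counts (n = 2209 guides) and 0.31 at 2000 and more (n = 1711 guides). Control guides at 100 to 199 initial counts had a median ratio of 1.58 (n = 20 guides), against 0.15 for gene-targeting guides of that range, and from 300 counts on the medians of both kinds lay between -0.09 and 0.12. Guides that differed by 8-fold or more had median initial counts of 229.5 for the 110 lower and 178.5 for the 86 higher, beside 684.5 for all. Of the called genes, FASN, HSD17B12, APRT, SLC1A7, SLC22A3, PIP5K1C and SCD kept too few guides to be scored at a minimum of 300 initial counts.

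**Figure D5:**
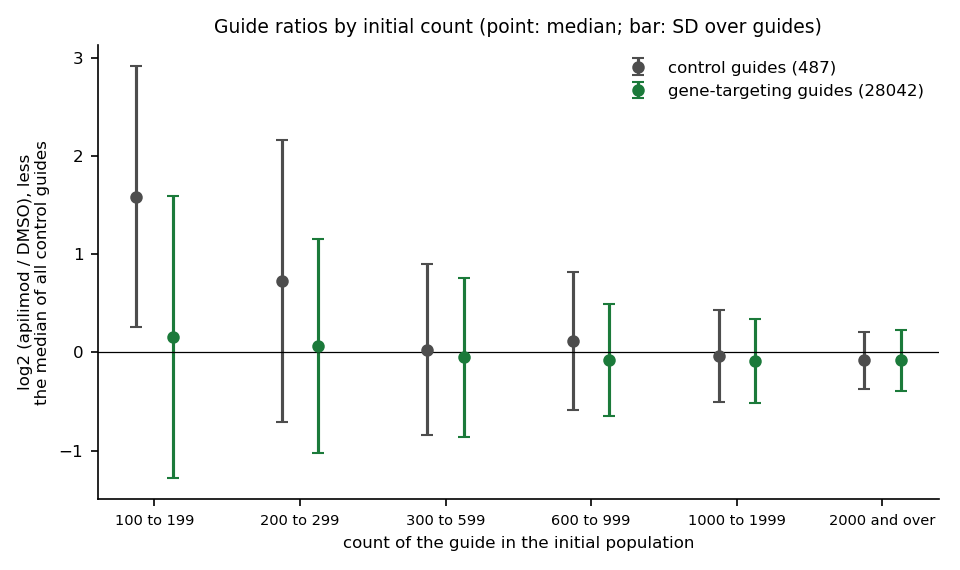
Median log2 ratio of apilimod to DMSO (points, y axis) with its SD over guides (bars) by the count of the guide in the initial population (x axis), for 487 control guides and 28042 gene-targeting guides. Both spreads narrow with rising counts, and the control guides at 100 to 199 counts lie at 1.58, above the gene-targeting guides at 0.15.

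Scores also followed base composition and position to a small degree. With genes ordered by the GC content of their coding sequence into 5 groups of like size, the median score from low to high GC was 0.08, 0.03, -0.03, -0.08 and -0.10. Removing this trend, a setting added after the data were seen, left 33 lower and 14 higher genes, among them 28 and 12 of those called before. By chromosome, the median ran from -0.16 on chromosome 19 (n = 158 genes) to 0.12 on chromosome 18 (n = 38 genes). Median coding GC was 61.9% on chromosome 19 and 49.3% on chromosome 18, so composition and position were not separated here. In GRCh38.p14 coordinates of RefSeq, FASN lies at chr17:82078338-82098236, ACACA at chr17:37084992-37406836, SLC25A1 at chr22:19175581-19178736, ELOVL1 at chr1:43363401-43368011 and PGD at chr1:10399064-10420511. The lower genes ST6GALNAC6, PTGES2 and SLC27A4 lie within chr9:127885321-128361470, and COQ4, between PTGES2 and SLC27A4, scored -0.79 ± 0.98 (SD, n = 7 guides). The 4 scored genes between ST6GALNAC6 and PTGES2 lay between -0.34 and 0.01. ELOVL1 and ATP6V0B lie 611.6 kb apart, with 3 scored genes between them at -0.08 to 0.56.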

How the data were processed

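Guides were counted from genomic DNA of 3 pools of MIA PaCa-2 cells. The deposited values were raw counts per guide, made by the authors with cutadapt 4.1, Bowtie2 2.4.5 and MAGeCK 0.5.9.5 per the submitters' processing notes. The per-library files and the table of the whole series differed in 0 values. No molecular identifiers were used, so counts are PCR copies. Guides with under 100 initial counts (1630 of 30197) and genes with under 6 guides left (9) were removed. Scores used a pseudocount of 1, library totals and the control median. The study's filters, pseudocount and mean over guides were kept, while its scaling to core essential genes was not run. Scaling in the same form to nucleotide synthesis and to N-glycan precursor genes was an alternative. The genes named in the text were the 12 lowest and 12 highest called genes and every called member of a list. Scored genes of the fatty acid synthesis, very-long-chain elongation and PIKfyve complex lists, and paralogs beside them, were given by name or as a range. Genes that missed a rule, such as DHODH, TECR, PCYT1A, ALG1, MDH2, NADK and COQ4, uncalled members of other lists and the remaining called genes were added after their values were seen. The members, lists and tests were chosen with earlier results of these data known. Symbols were matched to RefSeq (2961 of 2969), and coding GC came from GENCODE transcripts (2955 genes). The scripts ran in Python 3.11.15 with pandas 2.3.3 and were tested on simulated data. With 1 library per arm, no count model was used. Guide sequences were not used here. Some genes are not reported here by name, though they stay in the counts of genes.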

Additional observations from a re-analysis of the deposited data

How the results depend on the processing

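The 36 lower genes became 8 at 2-fold, 74 with no minimum share of guides, 7 when both arms were scaled to N-glycan precursor genes, 14 when scaled to nucleotide synthesis genes and 19 with summed counts per gene. In the other 13 alternatives the count was between 25 and 49. The 18 higher genes became 1 at 2-fold, 50 with no minimum share of guides, 72 with the N-glycan scaling, 37 when centred on all gene-targeting guides, 30 when centred on control guides of at least 300 initial counts, 30 with a minimum of 30 initial counts, 41 with no minimum, 28 with a minimum mean of 100 counts over the 3 libraries, 11 with the farthest guide left out, 8 with the median over guides and 7 with summed counts. Over the 16 alternatives that recompute the score and keep the 1.5-fold rule, 3 of the 36 lower calls (FASN, SLC25A1 and ELOVL1) held in every one that scored them, as did 2 of the 18 higher calls (DIRC2 and SLC22A3), although these 2 were lost at 2-fold. Signs of called genes turned in 6 cases, with the N-glycan scaling for ATP6V0B (0.053), ATP6V0C (0.57), ISCA2 (0.25) and RFK (0.10), and for SCD with a minimum of 30 initial counts (-0.074) and with no minimum (-0.065). The cause was not tested. Removing the GC trend (33 lower, 14 higher) and leaving out guides at 0 counts (29 lower, 15 higher) were chosen after the data were seen. No paired analysis was possible because each arm has 1 library, and no library could be left out. Depth limits guides of low abundance most, and a knockout already near 0 counts in DMSO could not be seen to fall further in apilimod.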
